A study of Mus musculus with 17 samples.

Results

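The genes described here encode the mouse major histocompatibility complex, called H2, and the machinery that loads its proteins with peptide. They were all 33 genes of the deposited liver table whose symbol starts with H2-, together with B2m, Tap1, Tap2, Tapbp, Psmb8, Psmb9, Psmb10, Cd74, Ciita and Nlrc5, which made 43 of 27020 genes. By name, 2 are classical class I genes, 20 are class Ib genes, 12 belong to class II, 8 to processing, and H2-Ke6 encodes a dehydrogenase that is no MHC protein. On chromosome 17 of GRCm38 lie 38 of the 43, and Ciita (chromosome 16), Cd74 (18), B2m (2), Nlrc5 and Psmb10 (both 8) lie elsewhere.

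Liver RNA was sequenced from 17 mice at 8 weeks of age, after removal of ribosomal RNA. KO_star mice (n = 6) were Khdc3-null, with heterozygous parents and both KO and WT grandparents. KO mice (n = 3) were Khdc3-null with KO ancestors. WT_star mice (n = 4) were wild type at Khdc3, with the same kind of heterozygous parents and mixed grandparents as KO_star. WT mice (n = 4) were wild type with WT ancestors. The design text calls the mice of both star groups females. Libraries are named by group and title number. Khdc3 is known as an oocyte gene; it had at most 4 reads in any liver library, in WT included, so its level checks no label. The sources used here give no strain, H2 haplotype, litter or batch and do not describe the null allele. Whether mice shared a litter is not stated, and the p-values then speak only of the spread among these 17 samples.

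Class I molecules are a polymorphic heavy chain with beta-2-microglobulin, and they show peptides from inside the cell to CD8 T cells and natural killer cells. Class II molecules are an alpha and a beta chain, are made mainly by B cells, dendritic cells and macrophages, and show engulfed antigens to CD4 T cells. The classical class I chains occur on nearly all cells, hepatocytes included, and the class Ib chains are more restricted. H2 genes lie together and are inherited as a block, and laboratory strains are known to differ widely in their H2 alleles and in the number of class Ib genes.

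The libraries held 17.62 to 26.7 M reads in genes. Values are reads divided by the authors' size factor of the library, called normalised reads below, and 1 read was worth 0.792 to 1.182 of them. The label gives the cell type as hepatocyte, yet all 10 Kupffer cell and macrophage markers and all 8 sinusoidal endothelial markers listed also passed the filter on low values, beside all 8 hepatocyte markers. Fewer cells of a type and less RNA per cell cannot be told apart in such samples. RNA level and differences in gene sequence that alter how reads align to 1 reference genome cannot be told apart either. A gene was tested where its value reached 10 in at least 3 libraries, which kept 16157 genes and 36 of the 43 described here. The test was limma on log2(value + 1) in 1 model of all groups, two-sided, and p was adjusted by Benjamini-Hochberg over the 16157 genes, with 0.05 as the threshold. Differences and their standard errors (SE) are on that log2 scale, where the change of a gene with few reads is understated.

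The 250 bases before the RefSeq start (build GRCm38.p6, table of RefSeq promoters) are printed for a classical class I gene, a liver class Ib gene and a pair of class II genes (H2-Eb1, which differed between KO and WT, and H2-Aa, which did not pass), to show how their upstream sequences compare. Capitals mark matches, on either strand, to the Y box CCAAT, the cyclic-AMP-response-like element TGACGC, the interferon-stimulated element GAANNGAAA and the kappa B element GGGATTCCC. The windows are chr17:34000348-34000597 on the minus strand for H2-K1, chr17:35469839-35470088 on the plus strand for H2-Q10, chr17:34305617-34305866 on the plus strand for H2-Eb1 and chr17:34287824-34288073 on the minus strand for H2-Aa.
H2-K1: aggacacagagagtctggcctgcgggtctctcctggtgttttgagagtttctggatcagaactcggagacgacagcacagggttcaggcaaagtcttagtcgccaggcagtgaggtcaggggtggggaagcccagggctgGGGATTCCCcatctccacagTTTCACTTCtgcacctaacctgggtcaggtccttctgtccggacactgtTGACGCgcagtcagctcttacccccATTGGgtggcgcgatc
H2-Q10: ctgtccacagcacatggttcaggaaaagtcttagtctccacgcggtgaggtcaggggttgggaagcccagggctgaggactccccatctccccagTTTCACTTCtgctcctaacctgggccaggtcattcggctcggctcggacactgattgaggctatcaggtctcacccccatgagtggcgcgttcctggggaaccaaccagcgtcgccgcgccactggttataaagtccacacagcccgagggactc
H2-Eb1: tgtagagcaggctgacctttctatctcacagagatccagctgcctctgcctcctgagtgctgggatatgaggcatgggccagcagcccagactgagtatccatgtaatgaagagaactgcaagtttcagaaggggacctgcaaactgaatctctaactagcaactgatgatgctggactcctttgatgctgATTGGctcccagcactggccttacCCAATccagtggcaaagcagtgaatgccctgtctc
H2-Aa: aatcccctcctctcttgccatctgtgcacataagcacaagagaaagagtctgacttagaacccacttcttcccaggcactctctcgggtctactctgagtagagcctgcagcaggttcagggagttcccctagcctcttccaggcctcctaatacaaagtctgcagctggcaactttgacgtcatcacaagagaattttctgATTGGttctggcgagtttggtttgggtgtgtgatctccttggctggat

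Of the 4 strings searched, H2-K1 held all 4 in this window and H2-Q10 the interferon-stimulated element alone. H2-Eb1 and H2-Aa held the Y box alone of these strings. The H2-Aa window also reads tgacgtca before its Y box, a string that starts like TGACGC but was not searched for. Of the 43 genes, 29 matched an entry of the table. The interferon-stimulated element was in 8 of 14 class I windows and in 0 of 8 class II windows, and over all 27025 promoters 6.34% held it. The Y box was in 11 of 14 class I and 7 of 8 class II windows, against 34.5% of all promoters. The kappa B element was in 4 of 14 class I windows (H2-D1, H2-K1, H2-Q6 and H2-Q7) and 0.311% of all promoters, and TGACGC was in 3 of 14 (H2-D1, H2-K1 and H2-M3) and 6.14%. A match is a string of letters, not a measured site. In the H2-Eb1 window, 88 of 250 bases lie in an exon of the antisense gene Gm20513. These bases lie before the H2-Eb1 start. Of the 1991 distinct 50-base windows of H2-Eb1 transcripts, 0 occur on either strand in transcripts of other genes. Shorter overlaps were not examined, and the strand setting of the counting is not given.

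KO livers against WT livers asks what differs in Khdc3-null mice of null ancestry. Class I genes changed in both directions. H2-K1, H2-Q10, H2-Q5 and the class II beta chain gene H2-Eb1 rose in KO, and the class Ib genes H2-Q1, H2-Q2 and H2-Bl fell. Thus 7 of the 36 passed the test, 4 higher and 3 lower, where 2.89% of all genes tested passed (1.32% higher and 1.57% lower, which is 213 and 254 genes, and 338 and 188 with equal library totals). The KO and WT libraries did not overlap for 25 of the 36, 15 higher and 10 lower in KO, against 18.4% of all genes tested (8.86% higher and 9.49% lower). All 25 lie on chromosome 17, where 31 were tested, and 0 of the 5 on other chromosomes were among them. The median log2 difference of the 36 was 0.34, and that of all genes tested was 0.01.

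The count of 7 depends on which libraries are in the model. It was 4 without WT 25, 4 without WT 26, 2 without WT 27, 3 without WT 28, 2 without KO 30, 1 without KO 31, 2 without KO 32 and 11 without KO_star 13. With the KO and WT libraries fitted alone, 17 passed, 9 higher and 8 lower. Over all 16157 genes tested, 467 passed in the model of all groups and 754 with KO and WT alone. That count was 314, 388, 282 and 232 without WT 25, 26, 27 and 28. It was 177, 150 and 168 without KO 30, 31 and 32, and 502 without KO_star 13.

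**Figure D1:**
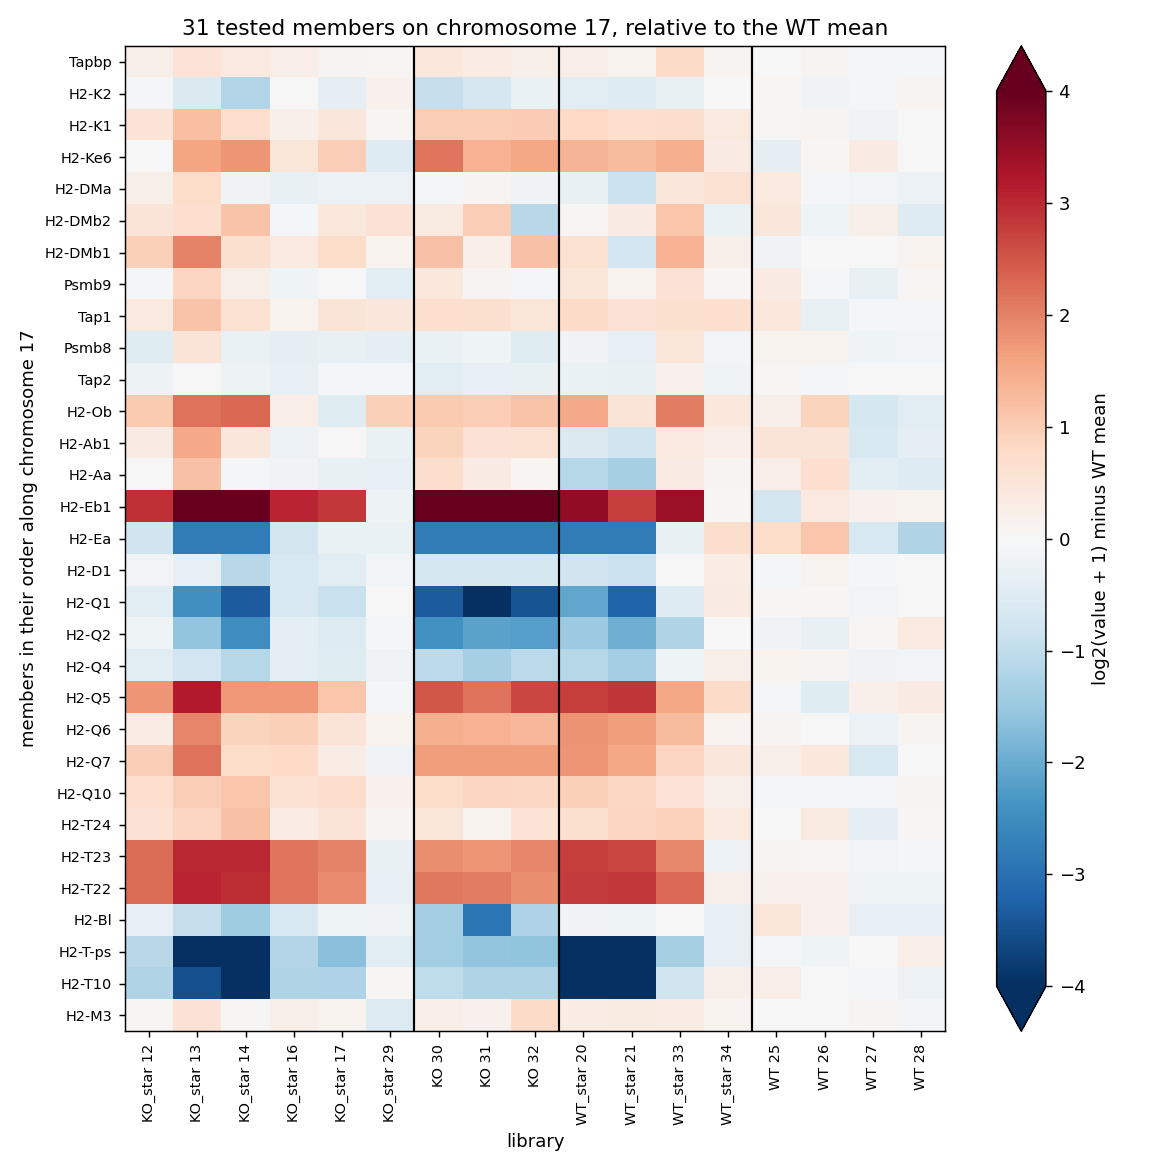
Level of the 31 tested genes on chromosome 17 in each library, as log2(value + 1) minus the mean of the 4 WT libraries, in chromosome order from top to bottom (colours are capped at 4 and -4; vertical lines separate the groups). The 3 KO columns resemble each other, whereas the columns of KO_star and WT_star differ from mouse to mouse, with KO_star 29 and WT_star 34 close to WT over most rows.

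Of the classical class I heavy chains, H2-K1 (chromosome 17 at 33996017 to 34000347) had 14575, 14628 and 14885 normalised reads in KO, against 7506, 7944, 6618 and 7262 in WT. Every KO library was above every WT library. The log2 difference was 1.01 (SE 0.19, adjusted p by limma 0.0076), a fold of 2.01. The call held in each of 9 alternative settings and without each of the 17 libraries, with adjusted p of 6.41e-05 to 0.0397. In KO_star H2-K1 ranged from 7492 through a median of 10392 to 16695, and in WT_star it had 12672, 11597, 11842 and 9572. The WT_star libraries were all above WT and all below KO, and KO_star 13 was above the KO range, KO_star 29 within the WT range and the other 4 KO_star libraries between the ranges.

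H2-D1 (17 at 35262730 to 35267499), the second classical chain, went the other way. It had 7050, 6976 and 6964 normalised reads in KO, against 11134, 12645, 10792 and 11310 in WT. The groups did not overlap, but the difference of -0.71 (SE 0.26) did not pass in the model of all groups (adjusted p by limma 0.162) and passed with KO and WT fitted alone (0.00114). H2-D1 ran from 5322 over a median of 8754 to 10609 in KO_star, and it had 6572, 6297, 11360 and 14210 in WT_star. The ratio of H2-K1 to H2-D1 within a library was 2.07 to 2.14 in KO and 0.613 to 0.674 in WT. It was 0.706 to 2.17 in KO_star and 0.674 to 1.93 in WT_star, which covers the whole stretch from WT to KO.

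H2-Q10 (17 at 35470089 to 35474563), a class Ib gene whose secreted product is made by liver, had 28186, 30572 and 30457 normalised reads in KO, against 16594, 16661, 16664 and 18255 in WT. The groups were well apart, with a log2 difference of 0.80 (SE 0.18, adjusted p by limma 0.0215), a fold of 1.75. That call was lost without any 1 of WT 25, WT 27, KO 30, KO 31 and KO 32, with adjusted p up to 0.0924. H2-Q10 also rose in KO_star, where the lowest of the 6 libraries (19306) was above the highest WT library, the median was 27592 and the highest 36735. That difference was 0.71 (SE 0.15, adjusted p by limma 0.0371). It was not called with only KO_star and WT in the model, nor without any 1 of WT 25, 26, 27 or 28, KO 31 or 32, or KO_star 12, 13, 14 or 17, with adjusted p up to 0.12. In WT_star H2-Q10 had 32807, 30474, 24784 and 20130, all above WT, with a difference of 0.64 (SE 0.17, adjusted p by limma 0.0727) that missed the threshold.

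Set per kb of annotated exon, B2m had the highest mean level of the 43 in every group. Per kb of exon, the mean levels in KO ran from H2-Q10 (6840) over H2-K1 (5000) to H2-D1 (2710). In WT the order was H2-D1 (4450), H2-Q10 (3920) and H2-K1 (2500). These heavy chain genes share sequence with relatives: 9.63% of the distinct 50-base windows of H2-K1, 12.8% of those of H2-D1 and 19.1% of those of H2-Q10 also occur in transcripts of other genes, so part of their reads is uncertain.

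**Figure D2:**
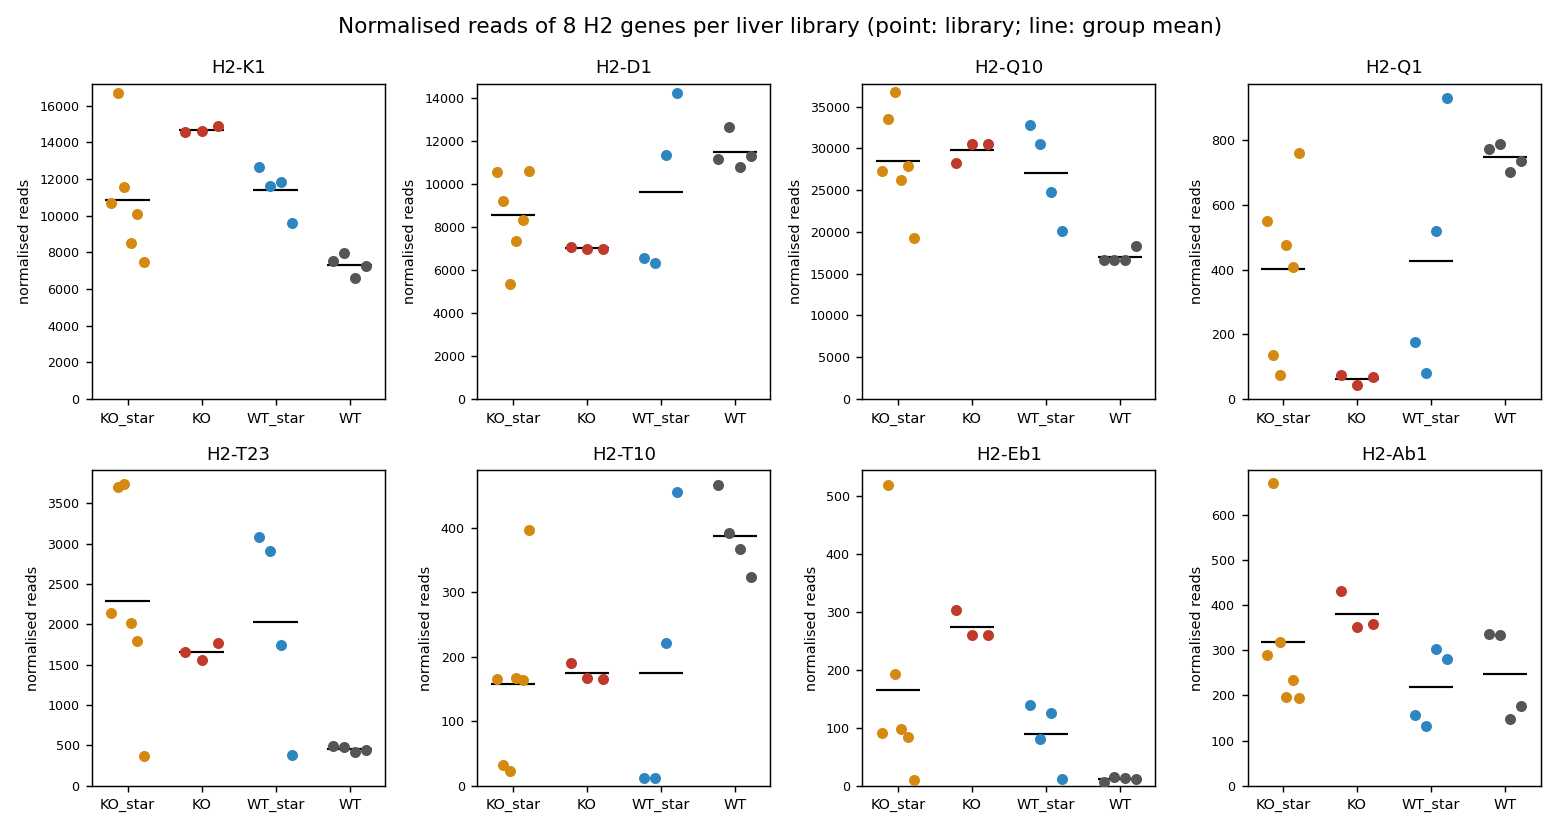
Normalised reads of 8 H2 genes in each library (points), grouped as KO_star, KO, WT_star and WT, with the group mean as a line and every vertical axis starting at 0. H2-K1 and H2-Q10 sit higher in all KO than in all WT libraries, H2-D1, H2-Q1 and H2-T10 lower, and H2-Ab1 spreads widely in every group but KO.

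The other genes of the Q region, which encode class Ib chains close to the classical ones, split by position. H2-Q1 (17 at 35320405 to 35325099) had 72.9, 44.4 and 66.9 normalised reads in KO, against 773, 788, 701 and 736 in WT. No KO library came near WT, and the log2 difference was -3.62 (SE 0.83, adjusted p by limma 0.0349). H2-Q2 (17 at 35342242 to 35346762) had 10.1, 12.4 and 11.8 in KO, against 52.5, 47.6, 60.5 and 77.0 in WT, a difference of -2.26 (SE 0.51, adjusted p 0.0252). H2-Q4, also lower in every KO library, averaged 328 ± 32.8 in KO (SD, n = 3) and 726 ± 69.1 in WT (SD, n = 4) and did not pass (-1.14, SE 0.31, adjusted p by limma 0.06). On the far side of H2-Q4, toward H2-Q10, the values of H2-Q5, H2-Q6 and H2-Q7 were higher in every KO library.

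H2-Q5 (17 at 35394126 to 35397800), annotated as a polymorphic pseudogene, had 25.8, 20.4 and 29.5 normalised reads in KO, against 3.56, 2.46, 4.57 and 5.07 in WT. It rose by 2.43 on the log2 scale (SE 0.59, adjusted p by limma 0.0337), and its WT level rests on few reads. H2-Q6 and H2-Q7, genes of the Qa-2 antigen, averaged 157 ± 5.53 and 268 ± 1.63 in KO (SD, n = 3), against 59.8 ± 6.71 and 86.8 ± 25 in WT (SD, n = 4). Neither overlapped between the groups, and neither passed, with differences of 1.39 and 1.67 and adjusted p by limma of 0.0623 and 0.0502. H2-Q4, H2-Q6 and H2-Q7 each passed with DESeq2, with KO and WT alone and without WT_star 34, and H2-Q7 also with TMM factors, with equal library totals and with a filter of 50. Near-identical copies limit these values: 36.4% of the 50-base windows of H2-Q5, 35.0% of those of H2-Q6 and 26.5% of those of H2-Q7 are shared with other genes, and 15.0% of those of H2-Q1. The calls of H2-Q1 and H2-Q5 were lost without any single WT or KO library. For H2-Q2 that was so for 5 of these 7 libraries, WT 27, WT 28 and each KO library, with adjusted p up to 0.0973. The adjusted p without 1 library reached 0.135 for H2-Q1 and 0.127 for H2-Q5, and H2-Q1 also missed with no filter on low values.

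In mixed-ancestry mice the Q genes varied from mouse to mouse. H2-Q1 ran from 74.1 over a median of 441 to 759 in KO_star and had 176, 81.2, 519 and 930 in WT_star. H2-Q2 ran from 9.53 over a median of 42.5 to 56.8 in KO_star and had 20.6, 14.5, 24.7 and 58.8 in WT_star. H2-Q5 ran from 3.55 over a median of 14.9 to 42.2 in KO_star and had 31.4, 33.8, 12.9 and 7.22 in WT_star. All 4 WT_star values of H2-Q5, the lowest included, were above the 4 WT values, and its difference to WT of 1.98 (SE 0.54) missed the threshold (adjusted p by limma 0.0886).

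The T region holds H2-T23, whose product Qa-1 presents leader peptides to natural killer cell receptors, and H2-T22 and H2-T10, ligands of a subset of gamma delta T cells. H2-T23 had 1662, 1558 and 1766 normalised reads in KO, against 491, 478, 422 and 440 in WT. H2-T22 had 622, 590.4 and 521 in KO, against 160.1, 162, 126 and 127 in WT. H2-T10 had 191, 168 and 165 in KO, against 467, 393, 367 and 324 in WT. KO and WT did not overlap for any of the 3, nor for the pseudogene H2-T-ps, which averaged 179.5 ± 14.4 in KO (SD, n = 3) and 524 ± 68.3 in WT (SD, n = 4).

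None of these 4 passed in the model of all groups, where adjusted p by limma was 0.166 to 0.711, and DESeq2 called H2-T22. Fitted with the KO and WT libraries alone, H2-T23 (1.86, adjusted p by limma 2.36e-06), H2-T22 (2.01, 1.95e-05), H2-T-ps (-1.53, 6.87e-05) and H2-T10 (-1.14, 0.000995) all passed. The model of all groups takes its spread from the mixed-ancestry libraries too, and there these genes varied widely. H2-T10 had 165, 32.7, 22.2, 167, 164 and 397 in KO_star 12, 13, 14, 16, 17 and 29, and 11.65, 11.6, 222 and 456 in WT_star 20, 21, 33 and 34. H2-T23 had 2147, 3704, 3742, 2011, 1799 and 372 in the same KO_star libraries and 3081, 2910, 1748 and 385 in the same WT_star libraries. KO_star 13 and 14 and WT_star 20 and 21 were thus far above the KO range for H2-T23 and far below it for H2-T10, while KO_star 29 and WT_star 34 were below the WT range for H2-T23 and within it for H2-T10.

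H2-Bl (17 at 36080115 to 36084223), a polymorphic pseudogene of the T region, had 4, 1 and 5 reads in KO, against 21, 18, 9 and 10 in WT. In normalised reads these were 4.48, 0.888 and 4.92 in KO, against 18.7, 14.8, 10.3 and 10.1 in WT. It fell by 1.83 on the log2 scale (SE 0.41, adjusted p by limma 0.0227) at a depth near the filter. The call was lost without WT 25, without KO 31 and with only KO and WT in the model, where adjusted p by limma was 0.0622. H2-Bl ran from 4.24 over a median of 9.03 to 11.8 in KO_star and had 11.65, 11.6, 12.9 and 10.3 in WT_star, so both groups had libraries in the WT range. H2-T22 and H2-T10 share 53.5% and 50.4% of their windows with other genes, in large part with each other, so their reads can be divided between them.

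Of the remaining class Ib genes, H2-T24 (0.38), H2-M3 (0.40), which presents formylated peptides, and the pseudogene H2-K2 (-0.61) did not pass between KO and WT, with adjusted p by limma of 0.222 to 0.433, although KO and WT did not overlap for H2-M3 and H2-K2. H2-Q3, H2-T3, H2-M2, H2-M5 and H2-M6-ps were too low to test, with 10, 33, 9, 2 and 6 reads over all 17 libraries. Reads of H2-Q3 were 0 in KO_star, 0 in KO, 1 in WT_star and 9 in WT, and those of H2-T3 were 7, 2, 4 and 20. With no filter on low values, H2-Q3 passed by limma in KO against WT and in KO_star against WT, on these few reads. The 22 class I and Ib genes summed to 55286 ± 1360 normalised reads in KO (SD, n = 3), against 39551 ± 1580 in WT (SD, n = 4). The sums in KO_star were 52946 ± 8990 (SD, n = 6), against 53016 ± 4000 in WT_star (SD, n = 4). H2-K1, H2-D1 and H2-Q10 made up most of each sum, since the other 19 genes summed to 3855 ± 181 in KO and 3705 ± 214 in WT.

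In class II, H2-Eb1, the beta chain of the I-E molecule (17 at 34305867 to 34316674), differed most. It had 304, 260.1 and 259.8 normalised reads in KO, against 6.225, 14.8, 12.6 and 12.2 in WT. The groups were far apart, with a log2 difference of 4.52 (SE 1.04, adjusted p by limma 0.0337), a fold of 23. The call was lost without any single KO or WT library and with no filter on low values, with adjusted p up to 0.108, while with only the KO and WT libraries it was 1.09e-05. In KO_star H2-Eb1 ran from 9.46 in KO_star 29 over a median of 93.8 to 519 in KO_star 13, and it had 139, 80.2, 126 and 11.3 in WT_star. KO_star 29 and WT_star 34 lay in the WT range, and the other libraries of both groups above it.

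H2-Ea, the alpha chain that pairs with H2-Eb1 (a polymorphic pseudogene in the annotation), had 0 reads in all 3 KO libraries, against 12, 17, 3 and 2 reads in WT. Taking 3 reads over the KO group as the floor and the 34 WT reads as exact, it was 8.18-fold lower in KO. That bound leaves out the counting error of the WT reads and their spread among mice. H2-Ea did not pass in the model of all groups (adjusted p by limma 0.109), but passed with only KO and WT (0.0442) and with DESeq2 (0.0331). H2-Ea also had 0 reads in KO_star 13 and 14 and in WT_star 20 and 21, and 3 to 10 reads in the other mixed-ancestry libraries. The I-A chains H2-Aa and H2-Ab1 averaged 343 ± 76.7 and 380 ± 44.0 in KO (SD, n = 3), against 279 ± 111 and 249 ± 100 in WT (SD, n = 4), and neither passed (adjusted p by limma 0.751 and 0.446), with no overlap of KO and WT for H2-Ab1.

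Cd74, the invariant chain that escorts class II proteins, and Ciita, the class II transactivator, differed by 0.50 (SE 0.39) and 0.52 (SE 0.35) and did not pass. H2-DMa, H2-DMb1 and H2-DMb2, which load peptide onto class II, and H2-Ob, of their inhibitor H2-O, had differences of -0.03, 0.88, 0.08 and 1.06 and adjusted p by limma of 0.337 to 0.978, and H2-DMb1 and H2-Ob did not overlap. H2-Oa and H2-Eb2 had 36 and 15 reads over all libraries and were not tested. Over the 10 class II genes tested, 1 passed, against 2.89% of all genes tested, and the median difference was 0.51. H2-Ea ranks lowest of the 10 also at its bound, so its value does not move that median.

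B cell markers, which mark one source of class II RNA, summed to 214 to 257 normalised reads in KO, against 103 to 217 in WT, with 1 of 8 called in KO against WT (Igkc, 1.5). The differences of all 8 were positive, with a median of 0.55, against a median of -0.05 for Kupffer cell and macrophage markers and -0.09 for dendritic cell markers. Kupffer cell and macrophage markers summed to 6314 to 7186 in KO, against 6141 to 7699 in WT, and dendritic cell markers to 282 to 340 in KO, against 256 to 366 in WT, with 0 of 10 and 0 of 5 called. The part of these cell types in the class II values was not tested. Of all genes tested, 2.89% passed between KO and WT. Among the other lists tested, 2 of 8 hepatocyte markers (Alb, -0.59, and Cps1, -0.53) and 1 of 7 stellate cell markers fell, and 0 of 5 T and NK cell, 0 of 4 monocyte and neutrophil, 0 of 8 endothelial and 0 of 5 cholangiocyte markers passed. Hepatocyte markers summed to 1591940 to 1826140 in KO, against 2400490 to 2512340 in WT. Stellate cell markers summed to 8060 to 8776 in KO, against 9624 to 10232 in WT. Cholangiocyte markers went the other way, with 368 to 492 in KO, against 269 to 341 in WT. The sums of the remaining lists overlapped between KO and WT. Of 7 monocyte and neutrophil markers listed, 6 were in the deposited table. No marker in that table had 0 reads in all libraries. The 3 dendritic cell markers Flt3, Xcr1 and Cd209a were too low to test. So were the T and NK cell markers Cd8a, Trac and Klrb1c, the monocyte and neutrophil markers Ly6c2 and Retnlg, and the cholangiocyte marker Cftr. The ratio of H2-Eb1 to H2-Ab1 within a library was 0.706 to 0.74 in KO and 0.0186 to 0.0846 in WT. The ratio of Cd74 to H2-Ab1 was 3.37 to 3.67 in KO and 3.37 to 5.03 in WT, so the ranges of that ratio overlap.

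**Figure D3:**
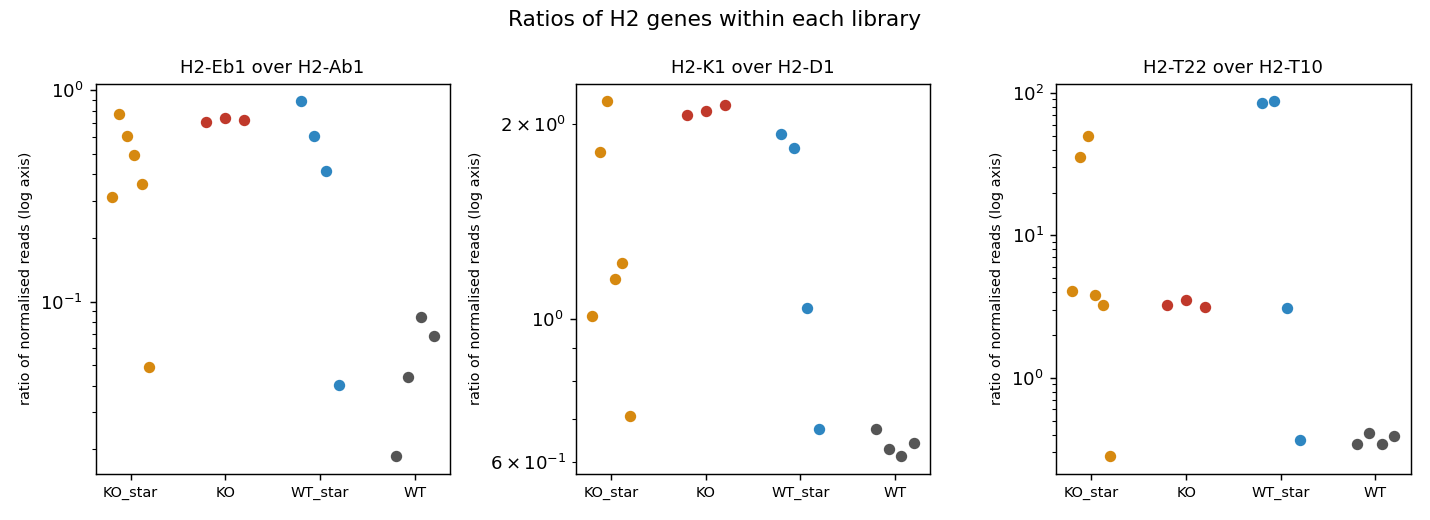
Ratio of normalised reads of 2 genes within each library (points), on log axes, for H2-Eb1 over H2-Ab1, H2-K1 over H2-D1 and H2-T22 over H2-T10, in KO_star, KO, WT_star and WT. The 3 KO libraries lie together and apart from the 4 WT libraries in each panel, KO_star 29 (0.0488, 0.706 and 0.283) and WT_star 34 (0.0404, 0.674 and 0.367) lie near WT, and for H2-T22 over H2-T10 KO_star 13 and 14 (35.8 and 49.7) and WT_star 20 and 21 (85.2 and 87.3) lie far above KO.

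No processing gene passed by limma between KO and WT, against 2.89% of all genes tested. By limma 3 of 8 had an unadjusted p under 0.05, against 16.7% of all genes tested. Of the 8, edgeR called 0 and DESeq2 called Tap2. B2m, the light chain of class I, averaged 20186 ± 855 in KO (SD, n = 3) and 21022 ± 2590 in WT (SD, n = 4). Its log2 difference was -0.05 (SE 0.12). The transporter genes went opposite ways without overlap: Tap1 averaged 565 ± 36.7 in KO and 378 ± 81.9 in WT (0.60, SE 0.18, adjusted p by limma 0.0875), and Tap2 586 ± 28.9 in KO and 755 ± 32.3 in WT (-0.36, SE 0.11, adjusted p by limma 0.0715). Tap1 passed without WT 25 and without KO_star 13, and Tap2 without WT_star 33, with KO and WT alone and with DESeq2.

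Tapbp, encoding the loading factor tapasin, was higher in every KO library and did not pass (0.32, SE 0.14, adjusted p by limma 0.242). The immunoproteasome genes Psmb8, Psmb9 and Psmb10 differed by -0.31, 0.15 and -0.20, and Nlrc5, the class I transactivator, by -0.02 (SE 0.34), with adjusted p by limma of 0.514 to 0.985. H2-Ke6 averaged 25.9 ± 7.71 in KO (SD, n = 3) and 7.24 ± 1.55 in WT (SD, n = 4) without overlap (1.69, adjusted p by limma 0.0587). It passed with edgeR, with DESeq2, with equal library totals, with KO and WT alone and without any 1 of KO_star 13, 14 and 29, and 70.5% of its windows are shared with the overlapping gene Gm20427.

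WT_star against WT asks whether wild-type mice with KO grandparents differ from those without. No member passed by limma, against 0.904% of all genes tested (0.532% higher and 0.371% lower, which is 86 and 60 genes, and 106 and 41 with equal library totals). By limma 16 of the 36 had an unadjusted p under 0.05, against 14.9% of all genes tested, edgeR called 0 and DESeq2 called 8 (H2-Eb1, H2-K1, H2-Q10, H2-Q5, H2-Q6, H2-T22, H2-T23 and Tap1, all higher). The libraries did not overlap for 12 of 36, 11 higher in WT_star and 1, H2-T-ps, lower, against 8.95% of all genes tested (4.12% higher and 4.83% lower). The 11 were H2-K1 (0.63), H2-Q10 (0.64), H2-Q5 (1.98), H2-Q6 (1.22), H2-Q7 (1.16), H2-T22 (2.03), H2-T24 (0.70), H2-M3 (0.27), Tap1 (0.66), Tapbp (0.32) and H2-Ke6 (1.10). Leaving out a library gave 2 members without WT_star 34, 2 without KO_star 13, 1 without KO_star 29, 1 without WT 25 and 0 otherwise. With only WT_star and WT in the model, H2-K1 passed.

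KO_star against WT shares its controls with the comparisons of KO and of WT_star. H2-Q10 alone passed, against 0.706% of all genes tested (0.464% higher and 0.241% lower). By limma 13 of 36 had an unadjusted p under 0.05, against 12.1% of all genes tested. The libraries did not overlap for 6, where the share of all genes tested was 2.89%: H2-Q10, H2-Q6 and H2-DMb1 were higher in KO_star (1.32% of all genes) and H2-D1, H2-Q4 and H2-T-ps lower (1.57%). Without KO_star 29, 4 members passed, namely H2-Eb1, H2-Q10, H2-T22 and H2-T23. DESeq2 called 7. Differences of members to WT stood as follows in KO_star and WT_star: 0.52 and 0.63 for H2-K1, 3.01 and 2.44 for H2-Eb1, 2.02 and 1.78 for H2-T23, and -1.29 and -1.37 for H2-Q1.

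KO_star against WT_star compares the genotypes within mixed ancestry. By limma 0 of 36 members passed, as did 0.0% of all genes, and 0 of 36 had an unadjusted p under 0.05. Over all genes 1185 did (7.33%), edgeR called 0 genes, and DESeq2 called 62 of which 0 were members. Libraries overlapped for all 36, where 1.38% of all genes tested did not overlap (0.761% higher and 0.619% lower). The differences ran from -0.45 (H2-Bl) to 0.96 (H2-T-ps), and H2-K1 differed by -0.12 (SE 0.16), H2-Q10 by 0.07 (SE 0.15) and H2-Eb1 by 0.57 (SE 0.88). The errors differ widely among members, with an SE of 1.21 for H2-T-ps.

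KO_star against KO compares null mice by ancestry. By limma 0 of 36 passed, against 1.46% of all genes tested (0.99% higher and 0.47% lower, which is 160 and 76 genes, and 149 and 214 with equal library totals). An unadjusted p under 0.05 was seen for 7 members, against 17.7% of all genes. EdgeR called 0, DESeq2 called H2-Q1 and H2-Q2, and 1 member passed without KO_star 13 (H2-K1) and 1 without KO_star 14 (H2-Q2). Only H2-Q1 did not overlap, higher in KO_star (2.33, SE 0.77, adjusted p by limma 0.142), against 11.1% of all genes tested (5.31% higher and 5.82% lower).

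The interaction tests whether KO_star minus WT_star differs from KO minus WT. All KO mice had KO ancestors and all WT mice WT ancestors, so genotype and ancestry cannot be told apart in KO minus WT. H2-K1 passed, with KO_star minus WT_star less KO minus WT at -1.12 (SE 0.24, adjusted p by limma 0.0313). Of all genes 1.29% passed, 0.755% with a higher and 0.538% with a lower difference. These are 122 and 87 genes, and 79 and 153 with equal library totals. KO_star minus WT_star was -0.12 and KO minus WT was 1.01. H2-K1 was called in all 8 alternative settings, but not without any 1 of WT 25, 27 or 28, KO 30, 31 or 32, or WT_star 20 or 21, with adjusted p up to 0.0833. Among the 36, 15 had an unadjusted p under 0.05 by limma, against 15.9% of all genes tested. The count was 5 without KO_star 13, 4 without WT_star 34, 2 without WT_star 33 and 2 without KO_star 14.

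The mixed-ancestry libraries were then placed against KO and WT for the 25 genes whose KO and WT libraries did not overlap. These genes were chosen on the KO and WT values and lie in 3.56 Mb of 1 chromosome, so they do not count as independent observations. KO_star 29 had 0 of 25 genes within or beyond the KO range and 17 within or beyond the WT range, and WT_star 34 had 1 and 12. KO_star 13 had 19 genes on the KO side and 1 on the WT side, KO_star 14 had 16 and 2, WT_star 20 had 17 and 2, and WT_star 21 had 13 and 4. KO_star 12, 16 and 17 and WT_star 33 had 11 to 13 genes between the ranges.

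Genes elsewhere in the genome gave other shares. Over 2767 genes off chromosome 17 whose KO and WT libraries did not overlap, 33.8% were on the KO side in KO_star 29 and 45.4% on the WT side, and in WT_star 34 these shares were 33.4% and 46.5%. In KO_star 13 they were 32.5% and 48.6%, and in WT_star 20 they were 41.0% and 39.2%. Both genotypes occur among the libraries at each end: KO_star 29 and WT_star 34 at the WT end, and KO_star 13 and 14 and WT_star 20 and 21 at the other.

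**Figure D4:**
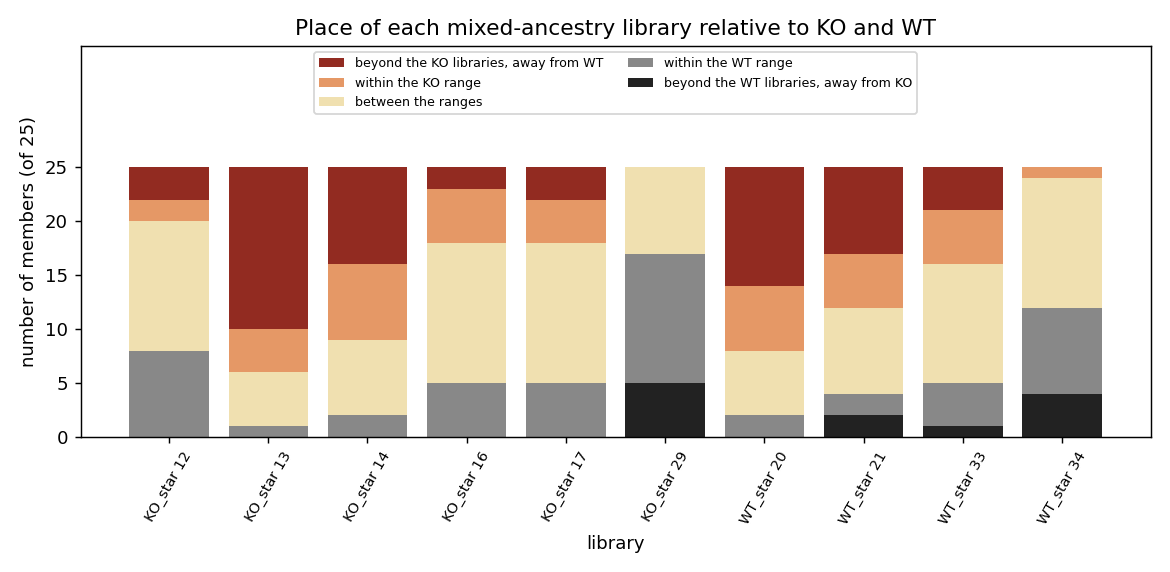
Number of the 25 non-overlapping genes (vertical axis) that each mixed-ancestry library, KO_star left and WT_star right, places beyond the KO libraries, within the KO range, between the ranges, within the WT range or beyond the WT libraries. KO_star 29 and WT_star 34 have 17 and 12 genes on the WT side and 0 and 1 on the KO side, and KO_star 13 has 19 on the KO side.

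The spread within groups was then set beside that of all genes. The median standard deviation on the log2 scale over the 36 was 0.52 in KO_star, 0.13 in KO, 0.59 in WT_star and 0.25 in WT. Over all genes tested it was 0.23, 0.15, 0.22 and 0.21 in the same groups. The standard deviation exceeded the 95th percentile of all genes for 11 of 36 members in KO_star, 2 in KO, 11 in WT_star and 1 in WT. In WT_star it was 2.96 for H2-T-ps, 2.72 for H2-T10, 1.63 for H2-Eb1 and 1.57 for H2-Q1, against 0.10 for B2m.

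Between the first and the last start of these genes on chromosome 17 (33915899 to 37480851), 99 other genes were tested. They are set apart by symbol alone, and some share sequence with members: 15.3% of the 50-base windows of H2-Q4 also occur in Gm11131. Of the 99, 3 passed between KO and WT, against 2.89% of all genes tested, so their share was that of the background. All 3 were lower in KO, namely Btnl2, Msh5 and Neu1. Btnl2, a butyrophilin-like gene, had 1 read in the 3 KO libraries together and 74 in the 4 WT libraries (adjusted p by limma 0.0166), a ratio of KO to WT of 0.0187 with an exact 95% counting interval of 0.000468 to 0.108. The interval covers counting error only. Msh5, of meiotic recombination, averaged 26.7 ± 8.79 in KO and 108 ± 20.5 in WT (-2.01, SE 0.41, adjusted p by limma 0.0152). Neu1, the lysosomal sialidase, averaged 806 ± 56.7 in KO and 1239 ± 101 in WT (-0.62, SE 0.08, adjusted p by limma 0.000572). The gene with the largest difference in size among the 99 was Gm8909, chosen after its values were seen, with 3, 5 and 8 reads in KO, against 208, 247, 143 and 176 in WT. It did not pass (-4.94, SE 1.69, adjusted p by limma 0.147), and passed with DESeq2 and with KO and WT alone. Gm8909 starts 2168.4 kb from H2-K1, near H2-T10 (2119.9 kb), and its relation to the class I genes was not examined. KO and WT did not overlap for 27 of the 99, against 18.4% of all genes tested, and the median difference of the 99 was -0.02.

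**Figure D5:**
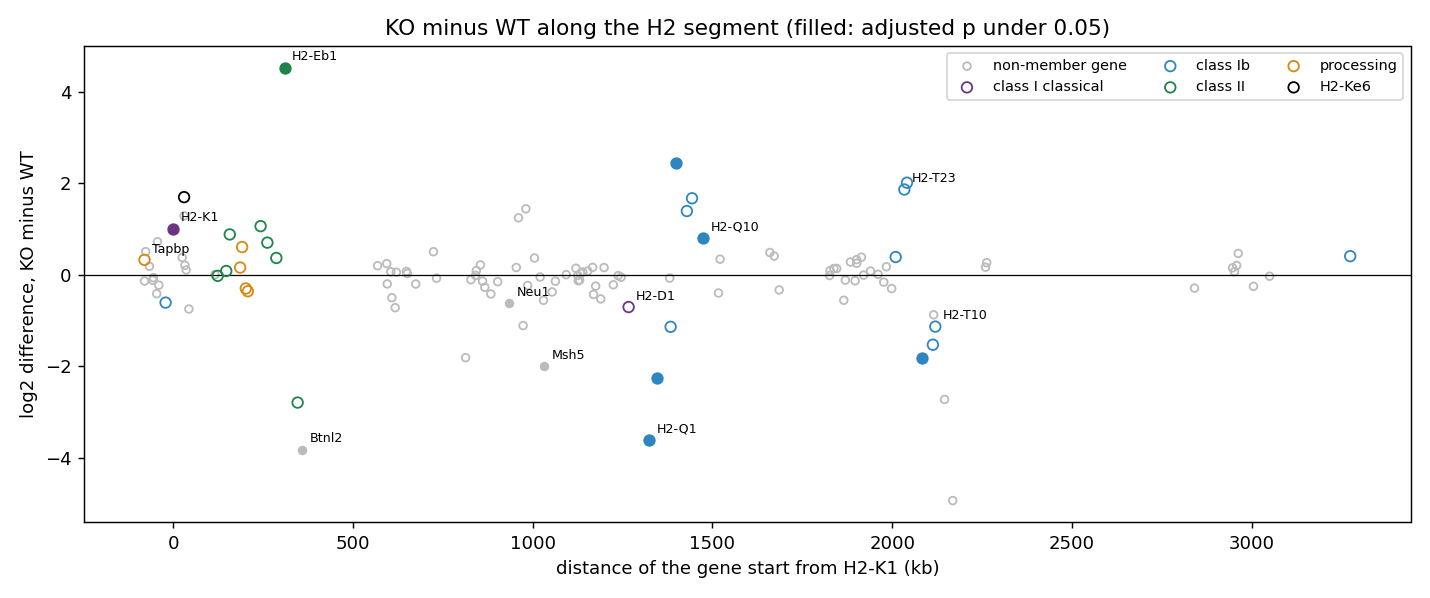
Log2 difference KO minus WT (vertical axis) of each tested gene along the H2 segment of chromosome 17, by the distance of its start from that of H2-K1 in kb (horizontal axis), with filled points for an adjusted p under 0.05. Coloured circles are the genes described here and grey circles the 99 other genes, of which 90 lie within 1 of 0; H2-Eb1 (4.52) and H2-Q1 (-3.62) stand far from 0, as do the other genes Gm8909 (-4.94, open) and Btnl2 (filled).

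Other genes of antigen presentation were read from lists of the pathway. Beside the counts below, 2.89% of all genes tested passed between KO and WT, and 16.7% had an unadjusted p under 0.05. The shares that passed were 0.706% in KO_star against WT, 0.904% in WT_star against WT and 1.46% in KO_star against KO. Of 10 class I loading and trimming genes, 0 passed between KO and WT (3 with an unadjusted p under 0.05 by limma), and of 4 class I-like genes outside the H2 names 0 passed (1 unadjusted). Of 9 class II processing genes Ctsl, a lysosomal protease, rose in KO_star (0.72, adjusted p by limma 0.000547), in KO (0.51, adjusted p 0.0146) and in WT_star (0.69, adjusted p 0.00222), each against the same WT libraries. Of 13 transcription factor genes Rfxank, a subunit of the RFX factor of class II promoters, rose in KO and 0 fell. Rfxank averaged 527 ± 137 in KO (SD, n = 3) and 199.99 ± 47.5 in WT (SD, n = 4), a difference of 1.39 (SE 0.25, adjusted p by limma 0.0072). It was at 201 ± 33.9 in KO_star (SD, n = 6), lower than in KO by 1.37 on the log2 scale (difference -1.37, SE 0.23, adjusted p by limma 0.00878).

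Of 13 interferon gamma targets outside presentation, 0 passed between KO and WT and their median difference was 0.00, with 2 unadjusted p under 0.05 by limma. In WT_star against WT, where 0.904% of all genes tested passed, 1 of the 13 did, the GTPase gene Irgm1 (0.58, adjusted p by limma 0.0269).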

How the data were processed

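Liver RNA libraries were made from total RNA with a stranded kit after ribosomal depletion, per the labels' protocols. The build GRCm38 and the tools cutadapt, HISAT2 and DESeq2 are listed, per the submitters' processing notes. How reads were counted, on which annotation and strand and with which filter is not given in the sources used here. As deposited by the authors, the table holds 1 normalised signal per gene and library, which is reads divided by 1 size factor: with a tolerance of 0.001 reads, 100.0% of the deposited values came out as whole reads. A floor of 3 reads is worth 2.377 to 3.547. Intervals and floors cover counting error only.

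Of 27020 identifiers, 26963 matched GENCODE M21, which gave the positions. Counts of the 30 library pairs within groups all differed by more than sampling noise (chi-square per degree of freedom 8.53 to 101.7 over genes with at least 20 reads), so each library was 1 sample. The test used limma 3.58.1 (R 4.3.3) on log2(value + 1), with trended, robust variance (statmod 1.5.0) and group means over 17 libraries. On the recovered reads edgeR 4.0.16 called 438 genes and DESeq2 1.42.0 called 865 in KO against WT.

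The genes described and the lists were chosen with earlier results of these data known. Members that passed the adjusted threshold in any comparison, and H2-Eb1, H2-K1, H2-Q1 and H2-Q10, are given by library, other tested members by means or differences, and untested ones by reads. Values of other members by library were added after they were seen. Other settings were pseudocounts of 0.5 and 5, no filter, a filter of 50, equal library totals, TMM factors, only the groups compared, and each library left out.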

Additional observations from a re-analysis of the deposited data

Results flagged for a closer look

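In groups of 4 or 6, 108 sets of values of the tested genes were examined for a library far from the others. Of these sets 13 held one. A chance rate of about 1 in 20 would need independent sets, and 9 of the 13 came from KO_star 13 alone, so the count cannot be compared with it. KO_star 13 was the highest of its 6 libraries and far from the rest in 9 genes. These were the class II genes H2-Ab1 (672, others 194 to 318), H2-Aa (587, others 208 to 267), H2-Eb1 (519, others 9.46 to 193), H2-DMb1 (57.0, others 15.4 to 27.4) and Cd74 (2396, others 828.9 to 1189), and also H2-Q5 (42.2, others 3.55 to 15.2), H2-Q6 (233, others 65.0 to 117), H2-Q7 (380.2, others 75.7 to 168) and Psmb8 (591, others 297 to 343), all in normalised reads. In that library Kupffer cell and macrophage markers summed to 12273 and B cell markers to 211, where the 6 KO_star libraries had 5898 to 12273 and 188 to 271, and their part in these values was not tested.

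H2-Q10 was apart in WT 28 (18255, others 16594 to 16664) and Tap2 in WT 25 (803, others 733 to 743). Psmb10 was apart in KO_star 12 (511, others 390.3 to 430.4) and in WT_star 33 (567, others 351 to 382). WT_star 33 also had the highest sums of Kupffer cell (12598) and B cell (376) markers of its group.

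H2-K1 passed the interaction test, with a difference of differences of -1.12 (SE 0.24, adjusted p by limma 0.0313, 17 libraries). The call was lost without any 1 of WT 25, 27 or 28, KO 30, 31 or 32, or WT_star 20 or 21. Genotype and ancestry go together in KO and WT, so the test cannot say which of them KO minus WT reflects.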

How the results depend on the processing

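No paired analysis was possible because no replicate number occurs in more than 1 group. With DESeq2 the members called were 14 in KO against WT, 8 in WT_star against WT, 7 in KO_star against WT, 2 in KO_star against KO and 8 in the interaction. With only the groups compared they were 17 in KO against WT, 1 in WT_star against WT and 0 in KO_star against WT, and with no filter 2 in KO_star against WT (H2-Q10 and H2-Q3). Leaving out each library in turn gave 1 to 11 members in KO against WT, 0 to 2 in WT_star against WT, 0 to 4 in KO_star against WT, 0 to 0 in KO_star against WT_star, 0 to 1 in KO_star against KO and 0 to 5 in the interaction. The cause was not tested, except that fewer samples enter a fit without a library. No difference of a member changed sign where it was called. Over the whole table DESeq2 called 865 genes in KO against WT, 602 in WT_star against WT, 341 in KO_star against WT, 62 in KO_star against WT_star, 823 in KO_star against KO and 687 in the interaction, against 467, 146, 114, 0, 236 and 209 by limma. The groups compared alone gave 754, 96 and 68 in the first 3, and equal library totals 363 in KO_star against KO. Leaving out libraries gave 150 to 617, 33 to 184, 51 to 140, 0 to 20, 37 to 364 and 74 to 498. Equal totals moved the balance of higher and lower calls in 4 of the comparisons, as given with each. H2-Ea, H2-Bl, H2-Q5 and H2-Q2 rest on few reads, and depth limits their folds.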
